A study of Mus musculus with 3 samples.

Results

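The snoRNA host lncRNAs Gas5, Snhg1, Snhg3, Snhg5, Snhg6, Snhg8 and Snhg12 were followed in the apoptotic bodies (ABs) of the mouse osteoclast lineage. They are long non-coding RNAs whose introns carry small nucleolar RNAs. Members were taken as the transcript rows of the mRNA and lncRNA tables that GENCODE M21 assigns to these 7 genes, or whose locus overlaps their bounds on GRCm38. This gave 130 of 80369 rows, and every one of the 7 hosts had rows, out of 18417 annotated genes with a row. Of the 130 rows, 66 were annotated to a host (of 72 host transcripts annotated), 31 were overlapping lncRNA rows that GENCODE assigns to no gene, 26 were snoRNAs inside the hosts and 7 belonged to neighbouring genes. The value of a host is the sum over its annotated rows and the unassigned lncRNA rows of its locus, 97 rows in all.

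The study compared ABs shed by bone marrow macrophages (BMM-ABs), by preosteoclasts (pOC-ABs) and by mature osteoclasts (mOC-ABs) to ask which RNAs the ABs of each differentiation stage carry. All cells came from femur and tibia marrow of 11-week-old C57BL/6 mice and had M-CSF at 50 ng/mL for 72 h. Per the labels, preosteoclasts then had RANKL at 100 ng/mL with M-CSF at 30 ng/mL for 24 h, mature osteoclasts the same for 72 h or more, and all cells had alendronate at 500 μM for 12 h to induce apoptosis. The paper's methods name staurosporine as the inducer and a longer RANKL time for mature osteoclasts, and the sample titles name cells where the series describes ABs. Each condition is 1 library, so no difference could be set against a spread between samples, and no p-value is given. Intervals are 95% intervals of counting error only, since reads without molecular identifiers are not independent molecules. The comparisons are pOC-ABs over BMM-ABs (G1), mOC-ABs over BMM-ABs (G2) and mOC-ABs over pOC-ABs (G3). They share libraries and are not independent. Where 3 values are given together without names, they are those of BMM-ABs first, then of pOC-ABs and last of mOC-ABs.

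A snoRNA host is transcribed and spliced like an mRNA, but its function lies largely in the introns. After splicing, the intron is trimmed down to a snoRNA, which then guides 2′-O-methylation (C/D box) or pseudouridylation (H/ACA box) of ribosomal RNA, or takes part in the cleavage of its precursor. The spliced exons of many hosts begin with a pyrimidine tract (5′ TOP) that ties them to the translation machinery, and they are degraded by nonsense-mediated decay when translated. Gas5, found as a transcript that accumulates in growth-arrested cells, is also known to bind the glucocorticoid receptor. Mature snoRNAs carry no poly(A) tail, and the paper's methods describe a selection of polyadenylated RNA with poly-T beads.

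The 2 tables together held 12734764 reads for BMM-ABs, 11865332 for pOC-ABs and 11556957 for mOC-ABs, so that 3 reads correspond to 0.236, 0.253 and 0.260 reads per 1000000 reads (RPM). The lncRNA table took 28.5%, 37.7% and 33.3% of these reads, and the 10 rows with the most reads took 24.9%, 36.4% and 31.1%. The median log2 ratio of the genes with at least 20 reads was -0.22 for G1, -0.18 for G2 and 0.04 for G3. Scaling in any of 4 other ways raised every G1 value by 0.20 to 0.24 and every G2 value by 0.10 to 0.18 on the log2 scale. The summed level of the 7 macrophage markers was 4191, 1752 and 1206 RPM, and that of the 10 osteoclast markers was 246, 362 and 1247 RPM. Of the osteoclast markers, Calcr was at 0 in each library, Oscar had 0, 7 and 49 reads and Itgb3 had 6, 3 and 0, so that 2 osteoclast markers were absent from mOC-ABs. The 6 neutrophil, 2 erythroid and 2 megakaryocyte markers were at 0 in every library. The B, T and stromal cell markers had at most 4 reads each.

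The 7 hosts together had 2010, 2862 and 2254 reads, which is 158, 241 and 195 RPM. The G1 log2 ratio was 0.61 (95% interval 0.53 to 0.69), the G2 ratio 0.31 (0.22 to 0.39) and the G3 ratio -0.31 (-0.39 to -0.23). Most of the higher sum lay in a single host. Snhg3 was 3.16-fold higher in pOC-ABs and 2.12-fold higher in mOC-ABs than in BMM-ABs, while Snhg5 was lower in both, at 0.441-fold and 0.453-fold. These were the only hosts past 2-fold in G1 and in G2, 2 of 7 in each, and none passed 2-fold in G3. Of all genes with at least 20 reads, 15.4% passed 2-fold in G1, 17.0% in G2 and 12.5% in G3 (4.51% higher and 7.94% lower in G3). Over all genes with a row, with no minimum, 9.50%, 7.71% and 9.72% were past 2-fold higher in G1, G2 and G3. A level in RPM is a share of the reads of its library, so it cannot show the number of ABs or the amount of RNA in each AB. The marker sums and the share of the lncRNA table also differed between the libraries, and their part in these values was not tested.

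**Figure D1:**
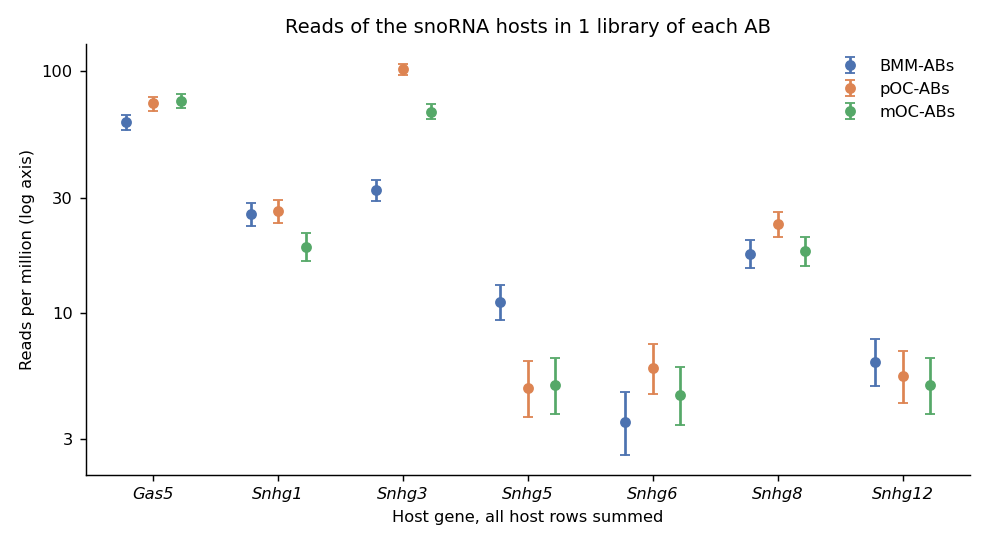
RPM of each of the 7 hosts (log axis) in each AB library, with points for the summed host rows and bars for exact 95% Poisson intervals of counting error. Snhg3 stood at 32.2, 102 and 68.1 RPM and Snhg5 at 11.1, 4.89 and 5.02 RPM, while the other hosts stayed within a factor of 2 between any libraries.

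Gas5 (ENSMUSG00000053332.13), on chr1:161034422-161038539 (plus strand), was the host with the most reads over the libraries together. It had 785, 873 and 873 reads (61.6, 73.6 and 75.5 RPM). The log2 ratio was 0.26 (0.11 to 0.40) in G1, 0.29 (0.15 to 0.43) in G2 and 0.04 (-0.10 to 0.17) in G3. The summed reads of Gas5 were thus slightly higher in both osteoclast-lineage ABs than in BMM-ABs, but its 8 rows with no snoRNA base had 183, 131 and 227 reads and a G1 log2 ratio of -0.38 (-0.72 to -0.05). Its G3 value changed sign under 3 of the 4 other scalings.

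Snhg1 (ENSMUSG00000108414.1), on chr19:8723475-8726443 (plus strand), hosts a row of C/D box snoRNAs and had 326, 313 and 217 reads (25.6, 26.4 and 18.8 RPM). Its G1 log2 ratio was 0.04 (-0.19 to 0.27), while G2 gave -0.45 (-0.70 to -0.20) and G3 gave -0.49 (-0.75 to -0.24). The lower value in mOC-ABs lay in the 2 unassigned rows of the locus, at 104, 115 and 25 reads, and the 17 annotated rows had 222, 198 and 192 reads. With annotated rows alone the G2 value was -0.07 (-0.36 to 0.22).

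Snhg8 (ENSMUSG00000104960.1), on chr3:123507552-123508404 (minus strand), carries the H/ACA box snoRNA Snora24. It had 223, 276 and 208 reads (17.5, 23.3 and 18.0 RPM), with a G1 log2 ratio of 0.41 (0.15 to 0.67) and a G2 ratio of 0.04 (-0.24 to 0.32). The higher level in pOC-ABs lay in the unassigned rows, which had 98, 169 and 87 reads, whereas the annotated rows had 125, 107 and 121.

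Snhg6 (ENSMUSG00000098234.7), on chr1:9941959-9944118 (minus strand), had 45, 70 and 53 reads (3.53, 5.90 and 4.59 RPM) and a log2 ratio of 0.74 in G1 (0.18 to 1.31). Its 5 annotated rows had 26, 27 and 20 reads and its 3 unassigned rows 19, 43 and 33. Snhg12 (ENSMUSG00000086290.9), on chr4:132308623-132311024 (plus strand), had 80, 65 and 58 reads (6.28, 5.48 and 5.02 RPM). Its log2 ratio of -0.20 in G1 (-0.69 to 0.29) turned to above 0 under 3 of the 4 other scalings, so no direction is given for Snhg12 at this depth.

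Snhg5 (ENSMUSG00000097195.9), on chr9:88521050-88522929 (minus strand), carries the C/D box snoRNAs of the Snord50 family. It had 141 reads in BMM-ABs and 58 in either other library (11.1, 4.89 and 5.02 RPM). The log2 ratio was -1.18 (-1.65 to -0.73) in G1 and -1.14 (-1.61 to -0.69) in G2. Snhg5 was the only host lower by more than 2-fold. Under the other scalings its G1 value lay between -0.98 and -0.94 and its G2 value between -1.04 and -0.96, so that it stood next to the limit of 2-fold.

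Levels of different hosts were compared per length, as RPM per kilobase of transcript (RPKM) summed over rows. In BMM-ABs the order was Gas5 (69.7), Snhg3 (58.5), Snhg1 (36.4), Snhg8 (22.5), Snhg5 (9.24), Snhg12 (6.84) and Snhg6 (5.04). In pOC-ABs Snhg3 came first at 181 RPKM and Gas5 second at 82.2, and in mOC-ABs the same hosts led at 121 and 92.1. The first place of Snhg3 rests on the single row Snhg3-202, which alone had 46.0, 157 and 107 RPKM. Without it, an alternative added after seeing the data, Snhg3 had 12.5, 24.0 and 13.8 RPKM, below Gas5 and Snhg1 in every library. Snhg5 stood above Snhg12 and Snhg6 in BMM-ABs and was last in the other libraries, at 4.42 and 4.39 RPKM. Snhg8 kept its place below Snhg1, at 22.5, 22.6 and 23.0 RPKM, so that its higher sum in pOC-ABs was seen in RPM and not per length. The lower places of Snhg5, Snhg6 and Snhg12 rest on 45 to 141 reads per library, and their counting intervals in RPM overlapped in both osteoclast-lineage libraries.

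The transcript starts of the hosts were read from RefSeq, build GRCm38.p6, where 6 of the 7 hosts had entries, with 7 starts in all. A run of at least 5 pyrimidines lay within the first 20 bases of 6 of these 7 starts and of 32.8% of the 32851 starts in the table. The search took any 5 consecutive letters out of C and T on the transcribed strand. The run opened the transcript at 3 of the 7 starts and at 4.44% of all starts. Those 3 starts are shown because they are closest to the 5′ TOP form, with the run in capitals, for Gas5 (chr1:161035166-161035185, plus strand), Snhg8 (chr3:123508317-123508336, minus strand) and Snhg12 (chr4:132308678-132308697, plus strand).
Gas5: CTTTCggagctgtgcggcat
Snhg8: CTCTTTggctgcgatccgcc
Snhg12: TTTCTCgcttcatccgcggt
The runs of Gas5 and Snhg8 open with C and that of Snhg12 with T, and the other start of Gas5 has no such run. The G1 log2 ratios of the hosts with these starts were 0.26 (0.11 to 0.40), 0.41 (0.15 to 0.67) and -0.20 (-0.69 to 0.29), with overlapping intervals.

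Snhg3 (ENSMUSG00000085241.7), on chr4:132348014-132353686 (minus strand), carries 2 H/ACA box snoRNAs, Snora73a and Snora73b (also known as U17 or E1), which take part in the early cleavage of the ribosomal RNA precursor. The host had 410, 1207 and 787 reads (32.2, 102 and 68.1 RPM). Its log2 ratios for G1, G2 and G3 were 1.66 (1.50 to 1.82), 1.08 (0.91 to 1.26) and -0.58 (-0.71 to -0.45). Almost all of this lay in 1 of its 4 rows. Snhg3-202 had 340, 1082 and 717 reads, with log2 ratios of 1.77 (1.59 to 1.95), 1.22 (1.03 to 1.41) and -0.56 (-0.69 to -0.42). Snhg3-201 had 56, 65 and 55 reads, with a G1 value of 0.32 (-0.22 to 0.86) and a G2 value of 0.11 (-0.45 to 0.68). Snhg3-203 had 7, 3 and 9 reads. Snhg3-204 had 7, 57 and 6 reads and was higher in pOC-ABs than in either other library, with 3.13 (1.99 to 4.51) in G1 and -3.21 (-4.72 to -2.0) in G3.

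Snhg3-202 is the row whose exon contains snoRNA sequence. Its first exon of 271 bases starts inside Snora73a and holds bases 47 to 205 of it, 159 of the 581 bases (27.4%) of the row. The other Snhg3 rows hold no snoRNA base. The sequences from the GENCODE M21 transcripts on GRCm38 show the overlap and the likeness of the snoRNAs. In Snora73a (chr4:132352775-132352979, minus strand) the capitals mark the part inside Snhg3-202. In Snora73b (chr4:132352322-132352526, minus strand) they mark the bases that differ from Snora73a.
Snora73a: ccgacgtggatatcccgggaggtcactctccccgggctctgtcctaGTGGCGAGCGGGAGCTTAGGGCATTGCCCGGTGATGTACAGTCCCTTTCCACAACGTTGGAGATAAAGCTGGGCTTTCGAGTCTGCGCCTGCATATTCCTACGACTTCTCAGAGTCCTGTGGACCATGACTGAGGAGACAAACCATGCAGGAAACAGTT
Snora73b: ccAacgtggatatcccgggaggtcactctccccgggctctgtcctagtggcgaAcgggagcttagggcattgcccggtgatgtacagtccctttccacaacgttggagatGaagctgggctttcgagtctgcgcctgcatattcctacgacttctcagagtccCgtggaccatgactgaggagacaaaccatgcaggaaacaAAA
The snoRNAs are 205 bases each and differ at 7 of them (96.6% identity). With Snora73b first and positions from its 5′ end, the differences are A3G, A54G, G111A, C164T, A203G, A204T and A205T, and 6 of the 7 lie in the stretch shared with Snhg3-202. Both carry ACA 3 bases from the end, the box that gives the class its name. Reads within the shared stretch cannot be told apart between Snora73a and Snhg3-202, nor from Snora73b where they cover no differing base, so the split of reads among these rows is uncertain.

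Snora73b had 1210, 3724 and 2541 reads and Snora73a 81, 215 and 147. The log2 ratios of Snora73b were 1.72 (1.63 to 1.82), 1.21 (1.11 to 1.31) and -0.51 (-0.59 to -0.44) for G1, G2 and G3. Those of Snora73a were 1.51 (1.14 to 1.90), 1.0 (0.60 to 1.41), just under the 2-fold limit, and -0.51 (-0.82 to -0.20). The reads of Snhg3-202 stood in nearly the same ratio to those of the snoRNAs in each library. For every 100 Snora73 reads it had 26.3 (23.3 to 29.7), 27.5 (25.7 to 29.4) and 26.7 (24.5 to 29.0) reads, and these intervals overlap. Snhg3-201, with no snoRNA base, did not keep such a ratio, at 4.34 (3.26 to 5.67), 1.65 (1.27 to 2.11) and 2.05 (1.54 to 2.67). Which part of the Snhg3-202 reads came from Snora73 was not tested, since the tables hold no positions of reads.

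**Figure D2:**
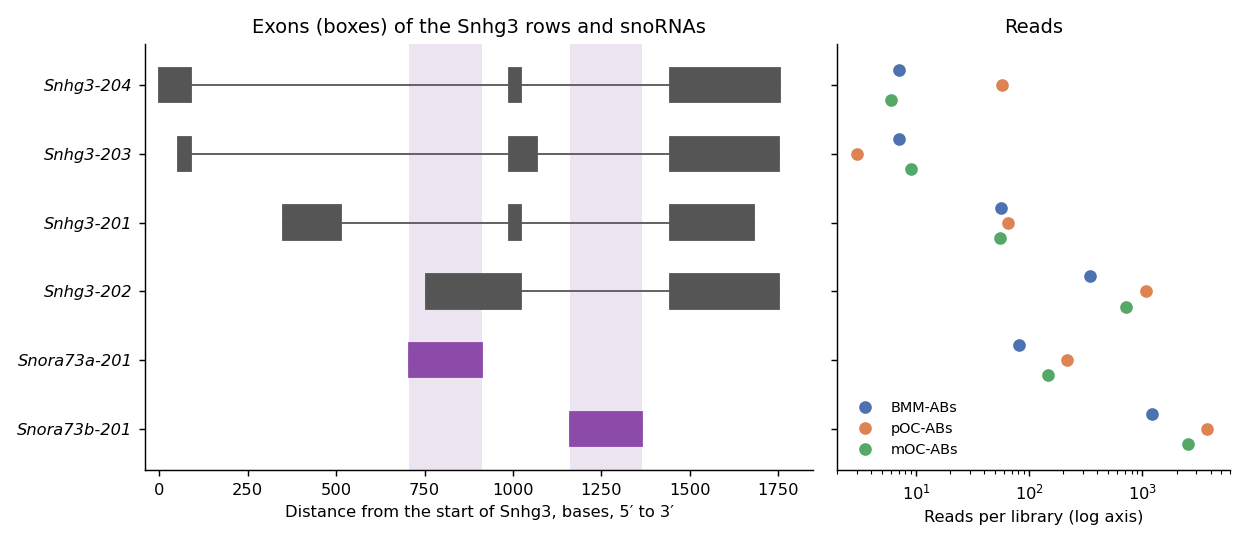
Exons (boxes) of the 4 Snhg3 rows and of the snoRNAs Snora73a and Snora73b by distance in bases from the start of Snhg3 (left), and the reads of each row in the 3 libraries on a log axis (right). Snhg3-202 is the only row with an exon in the shaded stretch of a snoRNA, and its 340, 1082 and 717 reads order the libraries as the snoRNAs do.

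Without Snhg3-202, an alternative added after seeing the data, the other rows of Snhg3 had 70, 125 and 70 reads, and the log2 ratio of Snhg3 was 0.94 (0.51 to 1.38) in G1 and 0.14 (-0.36 to 0.64) in G2. The 7 hosts together then had 1670, 1780 and 1537 reads, and their log2 ratio was 0.19 (0.10 to 0.29) in G1, 0.02 (-0.08 to 0.12) in G2 and -0.17 (-0.27 to -0.07) in G3.

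The 26 snoRNA rows of the 7 loci had 1441, 4182 and 2925 reads. They took 39.3% (37.7 to 40.9), 58.1% (56.9 to 59.2) and 54.6% (53.3 to 56.0) of the reads of all rows overlapping the loci. These shares were set by the Snhg3 locus, where the snoRNAs took 75.9%, 76.5% and 77.3%. Without that locus, a choice made after seeing the data, the shares were 7.65% (6.51 to 8.91), 11.8% (10.5 to 13.3) and 12.6% (11.1 to 14.2). The totals with and without that locus include the 211, 153 and 175 reads of Zbtb37 rows, which overlap Gas5 only at its start. Of the 29 snoRNA genes annotated inside the hosts 26 had a row, while Snord87, Snord99 and Snord50a did not. Snora73a and Snora73b, at 205 bases, stand in the lncRNA table, and the other 24, of at most 137 bases, in the mRNA table. TGATGA (the C box core) lay in the first 20 bases of 14 of the 26 and CTGA (the D box) in the last 12 bases of 18. ACA lay 3 bases from the end of 7. These counts do not divide the rows by class, since Mir5117 had all of these motifs and Snora44 had none.

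Only 8 of the 26 had at least 20 reads, and 14 had exactly 1 read in every library. A value of 1 read in all 3 libraries was found for 26.8% of the 325 snoRNA rows of the tables and for 2.64% of all rows, so these 14 are listed and nothing is read from them. The 4 others had at most 9 reads in a library. Among the 8, the median log2 ratio was 0.98 for G1, 1.11 for G2 and -0.24 for G3. In G1, 4 were past 2-fold higher and none lower, where 4.55% of all genes with at least 20 reads were past 2-fold higher. In G2, 4 were past 2-fold higher, against 3.66% of all genes, and 1 was lower. The 85 snoRNA genes outside these loci with at least 20 reads had medians of 1.06, 0.63 and -0.47, so the snoRNAs of the 7 hosts stood beside other snoRNAs in G1. Of these 85, 45 were past 2-fold higher and 5 lower in G1, and 19 were higher and 2 lower in G2.

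Snord22, a C/D box snoRNA inside Snhg1, was the most abundant after the Snora73 pair. It is printed because its ratios lay apart from those of the summed host rows, with the D box motif CTGA at base 118 in capitals (GENCODE M21, chr19:8725866-8725991, plus strand).
Snord22: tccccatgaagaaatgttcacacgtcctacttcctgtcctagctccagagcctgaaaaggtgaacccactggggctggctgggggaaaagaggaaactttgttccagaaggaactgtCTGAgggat
It had 67, 126 and 141 reads, with log2 ratios of 1.01 (0.57 to 1.46) in G1 and 1.21 (0.78 to 1.66) in G2. The summed rows of its host had 0.04 and -0.45 in the same comparisons, with intervals that do not overlap those of Snord22. The Snhg1 rows that hold snoRNA bases had 152, 189 and 164 reads and a G1 log2 ratio of 0.42 (0.10 to 0.73), whose interval overlaps that of Snord22. Their G2 log2 ratio was 0.25 (-0.08 to 0.58), with an interval apart from that of Snord22.

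In the locus of Snhg12, Snora44 had 6, 10 and 18 reads and Snora61 had 4, 11 and 9, with G2 log2 ratios of 1.72 (0.33 to 3.35) and 1.31 (-0.53 to 3.46). The G1 ratio of Snora61 was 1.56 (-0.19 to 3.67). Snora24, inside Snhg8, had 10, 18 and 15 reads and a G1 log2 ratio of 0.95 (-0.24 to 2.23). In the locus of Gas5, Gm22357 had 28, 30 and 32 reads, with a G1 log2 ratio of 0.20 (-0.59 to 1.0), beside 0.26 for its host. Gm22489, also in Gas5, had 18, 16 and 1 read, and its G2 log2 ratio of -4.03 (-9.41 to -1.37) rests on the single read in mOC-ABs.

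**Figure D3:**
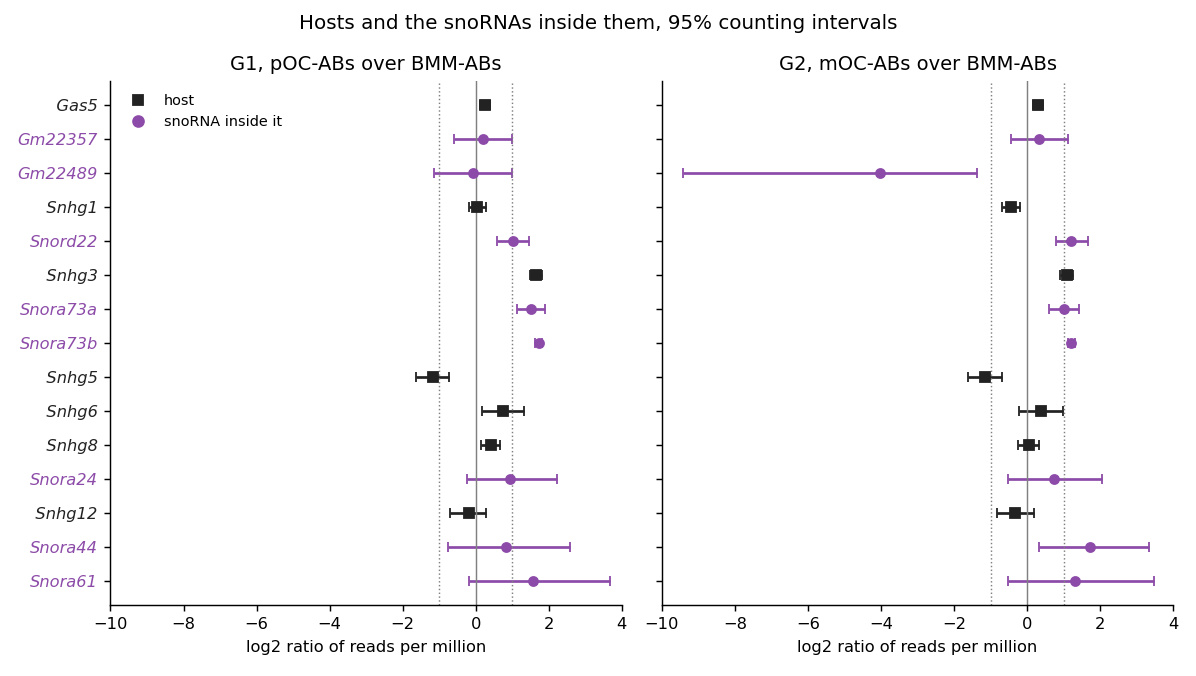
log2 ratios of RPM in G1 (left) and G2 (right) for the 7 hosts (squares) and for each snoRNA with at least 20 reads inside them (circles), with exact 95% intervals of counting error. Dotted lines mark 2-fold. Snord22 (1.01 and 1.21), Snora73b (1.72 and 1.21) and Snora61 (1.56 and 1.31, on 24 reads in all) lie past 2-fold in both comparisons, as does Snhg3 alone of the hosts on the higher side.

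Many host rows retain an intron, and such rows can hold the snoRNA in full. Rows annotated as retained introns took 41.6% (39.5 to 43.8), 33.9% (32.2 to 35.7) and 38.7% (36.7 to 40.8) of the host reads. These shares depend on Snhg3, which has no retained-intron row. Without Snhg3-202 they were 50.1%, 54.6% and 56.8%, so that BMM-ABs had the lowest share in place of the highest. In Gas5 the share was 81.7%, 87.2% and 78.6%, with the pOC-ABs interval apart from both others. In Snhg1 it was 31.6%, 38.7% and 56.2%, with the mOC-ABs interval (49.3 to 62.9) apart from both others. Unassigned rows have no such annotation and count only in the total. Of these, NONMMUT105143.1 of Snhg1, with 17, 26 and 1 reads, is as long as its locus, 2947 bases, and so is unspliced. The separation in Snhg1 depends on leaving it out of the retained introns, and a share that counts it was not computed. In Snhg8 it was 18.8%, 29.7% and 19.2%, with overlapping intervals. On annotated rows alone the pOC-ABs and BMM-ABs intervals were apart for Snhg1 (61.1% against 46.4%) and Snhg8 (76.6% against 33.6%). The mOC-ABs share of Snhg1 on annotated rows was 63.5% (56.3 to 70.4), which overlaps that of pOC-ABs (53.9 to 67.9). In Snhg5 the share of all host reads was 36.2%, 12.1% and 43.1%, lowest in pOC-ABs with its interval apart from both others.

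The annotated rows that hold at least 1 snoRNA base took 70.7% (68.5 to 72.9), 86.6% (85.2 to 87.9) and 77.6% (75.8 to 79.4) of the annotated host reads. These pooled shares include 340, 1082 and 717 reads on the single Snhg3 row of this kind. By host, the share was highest in pOC-ABs in 5 of the 6 hosts that have such rows, the exception being Snhg3. In Snhg8 it was 33.6% (25.4 to 42.6), 76.6% (67.5 to 84.3) and 33.1% (24.8 to 42.2), and in Snhg1 it was 68.5% (61.9 to 74.5), 95.5% (91.5 to 97.9) and 85.4% (79.6 to 90.1). In Gas5 the values were 76.7%, 85.0% and 74.0%. For Snhg5 and Snhg12 the intervals of the 3 libraries overlap.

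**Figure D4:**
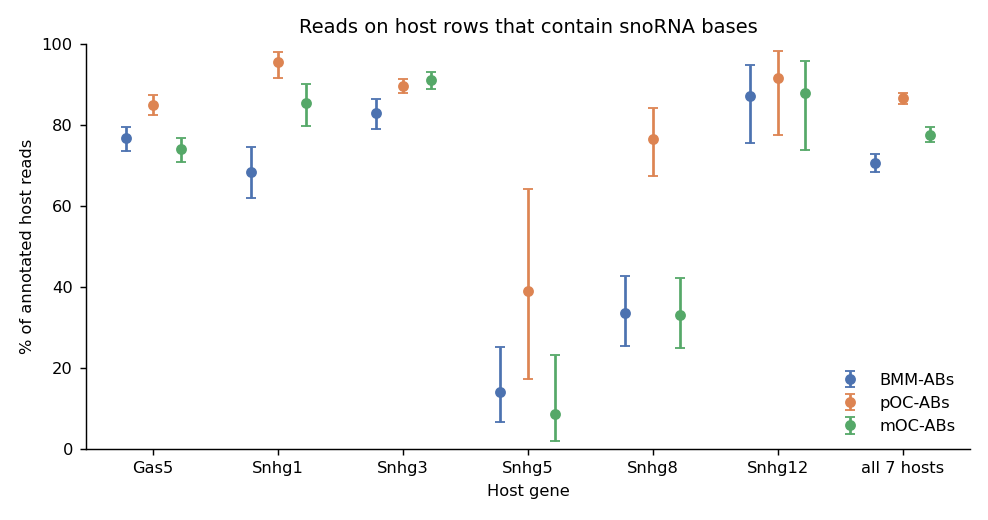
Percent of the annotated reads of each host that lie on rows containing at least 1 base of a snoRNA, in each library, with exact 95% binomial intervals of counting error. Snhg6 has no such row and is not drawn alone. The pOC-ABs point is the highest for Gas5, Snhg1, Snhg5, Snhg8 and Snhg12 and, with Snhg3 included, for all 7 hosts together, at 86.6%.

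The 26 annotated rows with no snoRNA base, a choice made after seeing the data, had 494, 331 and 463 reads. Their log2 ratio was -0.48 (-0.68 to -0.27) in G1, 0.05 (-0.14 to 0.23) in G2 and 0.52 (0.32 to 0.73) in G3. The rows that do hold a snoRNA base had 1193, 2135 and 1606 reads, with 0.94 (0.84 to 1.05), 0.57 (0.46 to 0.68) and -0.37 (-0.47 to -0.28). Of these reads, 340, 1082 and 717 lay on the single Snhg3 row of the class, with 1.77, 1.22 and -0.56. Among the other hosts with such rows, the G1 log2 ratio was 0.40 in Gas5, 0.42 in Snhg1 and 1.07 in Snhg8. In Snhg5 and Snhg12 it was -0.26 and -0.44, with intervals that include 0. The summed classes lay on opposite sides of 0 in G1. How the authors' counting divided reads among rows that share exons is not given in the sources used here.

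Single rows of a host often differed more than the host did. Of the 40 host rows with at least 20 reads over the libraries, 12 passed 2-fold in G1, 12 in G2 and 19 in G3. Of all rows with at least 20 reads 39.8% passed 2-fold in G1, 42.1% in G2 and 37.5% in G3, and of the 9154 lncRNA rows among them 47.6%, 53.8% and 45.3%, beside 30.0%, 30.0% and 47.5% of the host rows. Past 2-fold higher in G2 were 10.8% of all rows with at least 20 reads, 6.52% of the lncRNA rows and 5 of the 40 host rows.

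By reads, the same 2 rows led Gas5 in every library. Gas5-218, which retains introns and holds 435 snoRNA bases, had 263, 282 and 258 reads, and Gas5-212, also a retained intron, had 193, 271 and 270. Gas5-224, annotated as lincRNA and without snoRNA bases, had 97, 74 and 87. Per length the order differed, with Gas5-212 at 21.3, 32.1 and 32.8 RPKM, Gas5-224 between 12.4 and 15.2, and the longer Gas5-218 at 8.08, 9.30 and 8.73. The larger differences lay in smaller rows, and the 9 other rows with at least 20 reads in all had 3 to 26 in a library. Gas5-210 had 21, 17 and 71 reads, with a G3 log2 ratio of 2.10 (1.32 to 2.96), and Gas5-223 had 52, 75 and 13, with -2.49 (-3.46 to -1.63). Gas5-204 had 4, 25 and 0 reads. Taking 3 reads as the floor of the library, it was 8.12-fold lower in mOC-ABs than in pOC-ABs. Its G3 counting interval reached up to -2.61 on the log2 scale, which is a smaller difference.

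In Snhg8 the rows differed in opposite directions. Snhg8-203, with no snoRNA base, had 82, 24 and 80 reads, with log2 ratios of -1.67 (-2.39 to -1.0) in G1 and 1.77 (1.10 to 2.50) in G3. Snhg8-202, which retains the intron with Snora24, had 42, 82 and 40 reads, with 1.07 (0.51 to 1.64) in G1 and -1.0 (-1.58 to -0.44) in G3. The unassigned NONMMUT045116.2 had 92, 169 and 86 reads, with 0.98 (0.60 to 1.36) and -0.94 (-1.33 to -0.55). BMM-ABs and mOC-ABs thus had nearly the same rows of Snhg8, and pOC-ABs stood apart.

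In Snhg1, the rows Snhg1-211 and Snhg1-205, annotated as lincRNA and without snoRNA bases, had 34, 1 and 6 reads and 24, 1 and 11 reads. Both were low in pOC-ABs, where each had a single read. Snhg1-207, the annotated row with the most reads, had 61, 75 and 53, and the 5 other annotated rows with at least 20 reads in all had 5 to 20 in a library. Rows with retained introns differed between the osteoclast stages, Snhg1-215 with 18, 25 and 54 reads and Snhg1-203 with 18, 33 and 4. The unassigned NONMMUT033788.2 had 87, 89 and 24 reads, with a G2 log2 ratio of -1.72 (-2.43 to -1.05), and NONMMUT105143.1 had 17, 26 and 1. It was these unassigned rows that set the lower sum of Snhg1 in mOC-ABs.

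**Figure D5:**
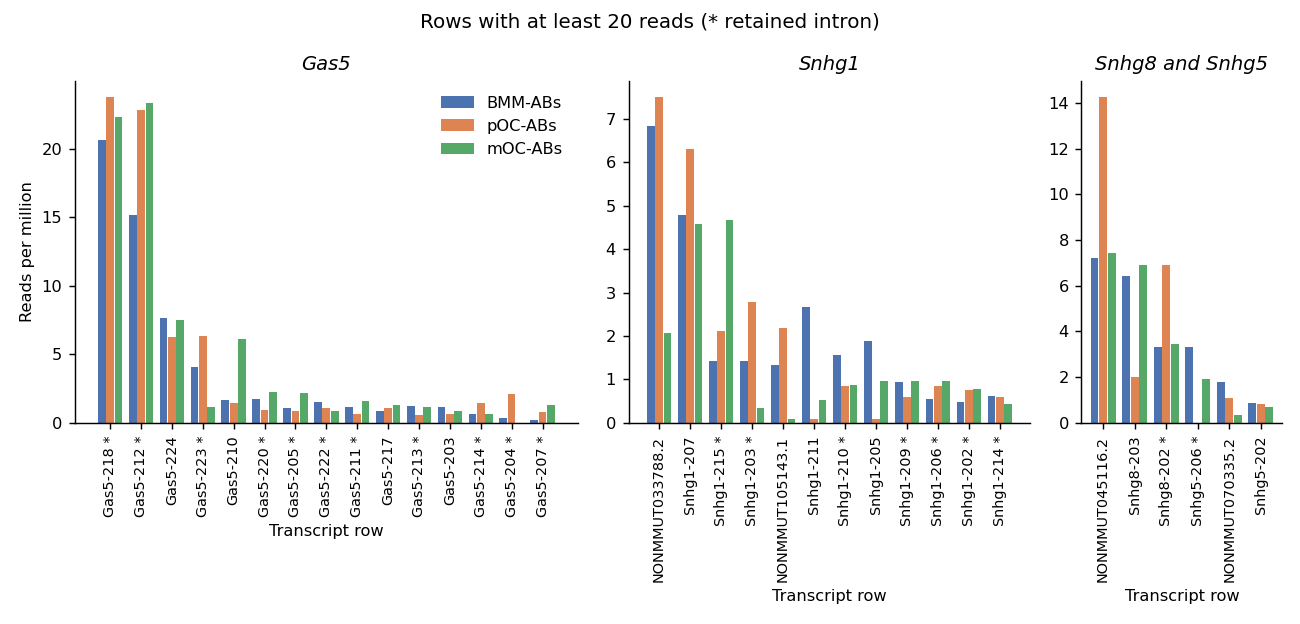
RPM of each row with at least 20 reads of Gas5 (left), Snhg1 (middle) and Snhg8 with Snhg5 (right), with 1 bar for each AB library and an asterisk for rows annotated as retained introns. The axes differ between panels. Gas5-218 and Gas5-212 have the highest RPM of the Gas5 rows in every library, while Snhg8-203 has 24 reads in pOC-ABs where NONMMUT045116.2 reaches 169.

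In Snhg5 the retained-intron row Snhg5-206 had 42, 0 and 22 reads. With 3 reads as the floor, it was 13.0-fold lower in pOC-ABs than in BMM-ABs and 7.53-fold higher in mOC-ABs than in pOC-ABs. Its counting intervals reached up to -3.34 in G1 and down to 2.49 in G3 on the log2 scale, which are smaller differences. Snhg5-202, annotated as lincRNA, had 11, 10 and 8 reads. The unassigned NONMMUT070335.2, which reaches beyond the gene, had 23, 13 and 4. The 5 annotated rows of Snhg5 had 64, 18 and 35 reads together and the 12 unassigned rows 77, 40 and 23, so both classes were lower in pOC-ABs and mOC-ABs than in BMM-ABs. With annotated rows alone the G2 log2 ratio was -0.73 (-1.37 to -0.11).

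Snhg6 and Snhg12 had few rows at this depth. Snhg6-205 had 19, 19 and 10 reads, and the unassigned NONMMUT000128.2 and NONMMUT000121.2 had 13, 36 and 9 and 4, 6 and 17. Snhg12-201 had 41, 28 and 29 reads and a G1 log2 ratio of -0.45 (-1.20 to 0.28), and it was the only row of Snhg12 with at least 20 reads. Of the 19 host rows of Snhg12, 7 had exactly 1 read in every library.

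Other rows overlap the hosts. The 5 rows of neighbouring genes over Gas5, all of Zbtb37 and 4 of them with at least 20 reads, had 211, 153 and 175 reads, with a G1 log2 ratio of -0.36 (-0.67 to -0.05). Those over Snhg3 and Snhg6 had at most 2 reads in a library. Whether the counting used the strand is not given in the sources used here, so reads of opposite genes cannot be told apart. None of the 1372 circRNA junctions listed overlapped a host.

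The other lncRNAs of this kind were taken as a list of 14, of which 9 had rows and 8 had at least 20 reads. Their median log2 ratio was 0.74 for G1, -0.35 for G2 and -0.82 for G3, beside medians of -0.22, -0.18 and 0.04 over all genes. Past 2-fold were 2 higher and none lower in G1, 2 higher and 2 lower in G2, and none higher and 4 lower in G3. Over all genes with at least 20 reads 4.55%, 3.66% and 4.51% were past 2-fold higher and 10.9%, 13.4% and 7.94% past 2-fold lower, in the same order of comparisons. Zfas1 had 361, 370 and 326 reads, with 0.14 (-0.08 to 0.35) in G1 and -0.01 (-0.23 to 0.21) in G2. Snhg15 had 72, 123 and 131 reads and Snhg9 16, 36 and 44, both higher in both osteoclast-lineage ABs. Snhg20 had 141, 213 and 61 reads, with a G3 log2 ratio of -1.77 (-2.20 to -1.35), and Epb41l4aos had 13, 32 and 11, both highest in pOC-ABs. Snhg17 had 188, 97 and 65 reads, with -0.85 (-1.22 to -0.49) in G1 and -1.39 (-1.82 to -0.98) in G2, and so was lower in both as Snhg5 was. Dancr had 10, 16 and 6 reads, Snhg18 had 10, 11 and 5 and Snhg10 had 4, 5 and 4. Dancr and Snhg18 were among the 4 lower in G3, at -1.38 (-3.02 to 0.05) and -1.10 (-2.98 to 0.54), with intervals that include 0.

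Protein-coding hosts, mostly of ribosomal proteins and translation factors, differed by less than 2-fold in G1 and G2. All 24 had at least 20 reads, with medians of 0.02, 0.16 and 0.17 beside -0.22, -0.18 and 0.04 over all genes. Of the 24, 12, 17 and 18 were above 0 in G1, G2 and G3. Of all genes with at least 20 reads, 4715 of 13880, 5016 of 13884 and 7354 of 13880 were. Eef2, the elongation factor of translocation, had a G1 log2 ratio of -0.47 (-0.48 to -0.45) and Taf1d 0.79 (0.74 to 0.85). Taf1d, a host of several snoRNAs that codes for a subunit of an RNA polymerase I factor, was the 1 gene past 2-fold in G3, with 4400, 7105 and 3268 reads and a G3 log2 ratio of -1.08 (-1.14 to -1.02). The 8 core proteins of snoRNA particles had medians of 0.07, 0.27 and 0.07, with none past 2-fold. Both kinds of particle held proteins on either side of 0 in G1. Of the H/ACA particle, Nop10 and Dkc1 had log2 ratios of 0.86 (0.62 to 1.10) and 0.55 (0.37 to 0.74), and Gar1 and Nhp2 had -0.39 (-0.61 to -0.17) and -0.13 (-0.23 to -0.02). Of the C/D particle, Nop58 had 0.66 (0.49 to 0.84) and the methyltransferase Fbl -0.27 (-0.40 to -0.13). Of the 10 factors of nonsense-mediated decay none passed 2-fold, with medians of -0.34 in G1 and -0.25 in G2 beside -0.22 and -0.18 over all genes. In G1 9 of the 10 were below 0, beside 9165 of 13880 genes with at least 20 reads. In G2 all 10 were below 0, beside 8868 of 13884 genes. Lowest in G1 were the kinase Smg1, with 4305, 2221 and 2877 reads and -0.85 (-0.93 to -0.78), and Smg5, with -0.80 (-0.91 to -0.70).

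By their pair of log2 ratios in G1 and G2, the genes nearest to the sum of the hosts among 11094 genes with at least 100 reads were Ocrl, Trmt10c, Rnf2, Pold4 and Rps28. Nearest to Gas5 were Guca1a, Psmb3, Gm42743, Ube2a and Rpl21-ps6. As 62 and 173 genes lay within a distance of 0.1 on the log2 scale, this likeness over 3 libraries is a description only.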

How the data were processed

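RNA of ABs of each stage was sequenced as 1 paired-end library, after poly-T selection per the paper's methods. The submitters' processing notes list FastQC, HISAT2, StringTie and GRCm38, and the counting tool and its strand setting are not given in the sources used here. The authors deposited a count and an FPKM for every mRNA and lncRNA transcript, and for circRNAs junction counts and an SRPBM score. Per the file headers, the lncRNA table also gives loci and lengths. The deposited FPKM of the 2 tables are scaled to different totals, so the counts were used. Every per-sample column was mapped by its hour.

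Transcripts were assigned with GENCODE M21, whose loci equalled 98.8% of those of Ensembl lncRNAs. An unassigned row was a lncRNA row overlapping a host that GENCODE gives to no gene. Of the host rows, 4 had another length in the table than in GENCODE. Ratios are of reads per 1000000 reads (RPM) of both tables, with exact conditional binomial (Clopper-Pearson) intervals, exact Poisson intervals for levels and exact binomial intervals for shares, all covering counting error only (SciPy 1.17.1, pandas 2.3.3). The interval code was tested on simulated counts. Past 2-fold is the fold limit of the paper's methods. The rule for named genes took the hosts, their rows, snoRNAs and other snoRNA host lncRNAs with at least 20 reads, and the 5 genes with at least 100 reads nearest to the summed hosts and to Gas5. Rows and list genes outside this rule were named after their values were seen. The members and lists were chosen with earlier results of these data known. Alternatives were 4 scalings, other row sets, summed FPKM, a pseudocount of 1 RPM, filters on low counts and the most abundant host left out.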

Additional observations from a re-analysis of the deposited data

How the results depend on the processing

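No paired analysis was possible because each condition is 1 library, and no replicate could be left out. Of 243 recomputed values for sums, counts, shares and lists 171 stayed within the counting interval or within 1.5 times the count. The cause of the other moves was not tested, except where rows or hosts were left out by construction. The summed log2 ratio of the 7 hosts in G1, G2 and G3 was 0.81, 0.41 and -0.41 with the mRNA table as the total, 0.85, 0.43 and -0.42 without the 10 rows with the most reads, and, in G1 and G2, 0.81 and 0.47 with median-of-ratios and 0.85 and 0.49 with upper-quartile factors. It was 1.08, 0.69 and -0.39 with every overlapping row, 0.43 in G2 and -0.22 in G3 with annotated rows only, 0.42 and -0.23 with unassigned rows only inside the gene bounds, 0.40 in G2 with FPKM, and 0.80 in G1 and -0.49 in G3 without Gas5. Without Snhg3-202 it was 0.19, 0.020 and -0.17, and on rows with no snoRNA base it was -0.48, 0.047 and 0.52, with the sign turned in G1 and G3, both added after seeing the data.

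Past 2-fold in G1 was 1 host under each of the 4 other scalings and without Snhg3-202, and 4 on rows with no snoRNA base. In G2 it was 1 with median-of-ratios or upper-quartile factors, annotated rows only, unassigned rows only inside, without Snhg3-202 or with no snoRNA base, and in G3 it was 3 with no snoRNA base. Retained-intron shares, ordered by stage, were 49.6%, 39.4% and 42.2% on annotated rows, 32.2%, 25.4% and 28.9% with FPKM and 50.1%, 54.6% and 56.8% without Snhg3-202. snoRNA shares were 46.1%, 62.9% and 58.6% on annotated host and snoRNA rows and 7.65%, 11.8% and 12.6% without the Snhg3 locus, added after seeing the data.

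For the lists, 4 other snoRNA host lncRNAs passed 2-fold in G1 with upper-quartile factors and without the top 10 rows. The protein-coding hosts had G1 medians of 0.22 with the mRNA table, 0.22 with median-of-ratios, 0.26 with upper-quartile factors and 0.26 without the top 10 rows, G2 medians of 0.33, 0.34 and 0.28 with the last 3, and 1 gene past 2-fold in G1 with the last 2. Of the core snoRNP genes 1 passed 2-fold in G1 under each of the 4 scalings. Without a filter on low counts 8, 8 and 3 snoRNAs of the loci passed 2-fold in G1, G2 and G3. Of 252 values of single hosts 199 stayed within their counting interval and 30 changed sign. None of the 30 was past 2-fold as first given, but 4 were past it on rows with no snoRNA base, where Snhg1 had -2.86 in G1 and 1.68 in G3 and Snhg8 had -1.63 in G1 and 1.73 in G3.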
